A study of Homo sapiens with 2 samples.

Results

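A-kinase anchor proteins (AKAPs) are scaffolds that hold protein kinase A, the kinase switched on by cyclic AMP, at a fixed place in the cell. A typical AKAP carries an amphipathic helix that docks onto the dimer of regulatory subunits of the kinase. It also has a targeting region that binds a membrane, the centrosome, chromatin or the cytoskeleton. Many also hold phosphatases, phosphodiesterases or other kinases, so the family is defined by a shared function more than by a shared sequence. The 9 genes described here, AKAP1, AKAP7, AKAP8, AKAP8L, AKAP9, AKAP10, AKAP11, AKAP12 and AKAP13, were taken by name from the 40205 rows of the deposited gene table. A name alone does not show that the product binds the kinase, and binding was not examined.

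RKO, a human cell line long established from a colon carcinoma, was sampled at 48 h after transfection of either an siRNA against SRSF1 or a control siRNA. SRSF1, once called ASF, encodes an SR protein of the splicing machinery. Each group is 1 library, so no difference below has a replicate check and no p-value is given. The SRSF1 siRNA library had 61879680 reads, of which 75.9% mapped, and the control siRNA library 64651910, of which 70.4% mapped. The sequence and number of siRNAs are not in the sample labels, and all cells are of 1 line. Of the markers looked at, KRT18 and EPCAM were present at 82.2 and 18.2 FPKM in the SRSF1 siRNA library and 88.4 and 17.2 FPKM in the control library, whereas the epithelial cadherin CDH1 was listed at 0 in both. KRT8 and the mesenchymal filament gene VIM were at 4.43 and 3.35 FPKM in the SRSF1 siRNA library and 3.62 and 4.95 FPKM in the control library.

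SRSF1 itself was at 32.7 FPKM in the SRSF1 siRNA library, against 103 FPKM in the control library, which is 31.7% of the control level. The exons of SRSF1 share 1890 bases with the gene AC015813.2 on the same strand in GENCODE 29. FPKM counts sequenced fragments per kilobase of transcript model and relative to library size, so levels can be compared between genes. Intervals given with ratios are exact 95% intervals from whole fragment counts recovered from the FPKM values. They cover counting error only. An expressed gene had a mean of at least 1 FPKM over both libraries, as had 11274 genes. Since each gene is measured over all cells of a culture, fewer cells that express it and less RNA per cell cannot be told apart.

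The 9 genes were listed with their FPKM values in these libraries already known, so these values are a description and support nothing about the choice. No level was stated as a limit. The listed gene with the lowest mean was AKAP7 at 1.74 FPKM, and AKAP5, which is not listed, had a mean of 0.966 FPKM. AKAP2 is not listed either, although it had 14.6 FPKM in the SRSF1 siRNA library and 13.5 FPKM in the control library. GENCODE 29 gives it 6745 exon bases in common with the read-through gene PALM2-AKAP2, in the same direction, and both rows may hold the same reads.

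The promoters of 3 genes are shown because these genes mark the ends of the family's order of ratios and the layout of its only neighbouring pair. AKAP9 had the highest ratio between the libraries and AKAP7 the lowest. The AKAP8 window fills most of the 262 bases that separate AKAP8 from AKAP8L in the RefSeq annotation. Each sequence is the 250 bases before a transcript start in RefSeq on GRCh38.p14, read 5′ to 3′ on the strand of the gene, and capitals mark the half-site of the cyclic AMP response element, TGACG or its reverse complement CGTCA. The windows are chr7:91940612-91940861 on the plus strand for AKAP9, chr19:15379788-15380037 on the minus strand for AKAP8 and chr6:131135217-131135466 on the plus strand for AKAP7.
AKAP9: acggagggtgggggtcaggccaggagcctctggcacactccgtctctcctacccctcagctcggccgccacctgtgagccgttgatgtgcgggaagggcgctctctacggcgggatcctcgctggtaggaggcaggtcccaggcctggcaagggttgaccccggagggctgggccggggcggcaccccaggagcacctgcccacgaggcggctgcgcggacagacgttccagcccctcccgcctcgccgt
AKAP8: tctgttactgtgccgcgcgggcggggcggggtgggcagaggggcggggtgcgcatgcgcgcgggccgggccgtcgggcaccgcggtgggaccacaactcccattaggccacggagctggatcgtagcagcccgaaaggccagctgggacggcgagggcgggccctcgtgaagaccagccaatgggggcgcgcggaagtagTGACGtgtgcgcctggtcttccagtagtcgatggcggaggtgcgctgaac
AKAP7: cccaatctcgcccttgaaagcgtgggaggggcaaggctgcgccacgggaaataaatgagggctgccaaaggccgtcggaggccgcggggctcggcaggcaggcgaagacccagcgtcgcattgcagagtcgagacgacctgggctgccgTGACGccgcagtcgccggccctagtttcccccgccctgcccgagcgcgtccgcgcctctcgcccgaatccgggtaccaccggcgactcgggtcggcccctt

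The half-site occurs once in the AKAP8 window and once in the AKAP7 window, and these letters are not in the AKAP9 window shown. RefSeq windows were found for 8 of the 9 genes, all but AKAP8L. There were 15 windows in all, and 6 of these held a half-site. AKAP1 accounted for 3 of them, and AKAP7, AKAP8 and the other start of AKAP9 for 1 each. The AKAP1 windows chr17:57085506-57085755 and chr17:57085654-57085903 overlap and hold the same half-site, so that site is counted more than once. Among all 35116 windows of this length, 21.2% held one on either strand. The full element, TGACGTCA, was in none of the family's windows and in 1.65% of all windows. The half-site is part of the full element, and a match is a run of letters, not a measured binding site.

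Most of the family was higher in the SRSF1 siRNA library, by less than 1.5-fold. Ratios ran from 1.16 to 1.47 for AKAP8, AKAP13, AKAP10, AKAP8L, AKAP12 and AKAP9, in rising order, and the counting interval of each lay wholly above 1. AKAP11 and AKAP1 were at 0.958 and 0.897 times their control levels. AKAP7, the least abundant of the 9, was at 0.438 times. On the log2(FPKM + 1) scale, which understates changes of low genes, 0 of 9 were at least 1.5-fold higher and 1, AKAP7, was at least 1.5-fold lower. Over all 11274 expressed genes these shares were 1.22% and 4.30%. On that scale none of the 9 reached 2-fold in either direction, where 0.284% of expressed genes were at least 2-fold higher and 0.435% at least 2-fold lower.

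The counting interval lay wholly above 1 for 6 of the 9 genes and wholly below 1 for 2, AKAP1 and AKAP7, and it held 1 for AKAP11. Among all expressed genes, it lay wholly above 1 for 19.5% and wholly below 1 for 34.5%. The median log2(FPKM + 1) difference, SRSF1 siRNA minus control siRNA, was 0.27 over the 9 genes and -0.06 over all expressed genes, whose differences had an SD of 0.29. Since the genes were listed with these values known, nothing is read from the contrast with the background.

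**Figure D1:**
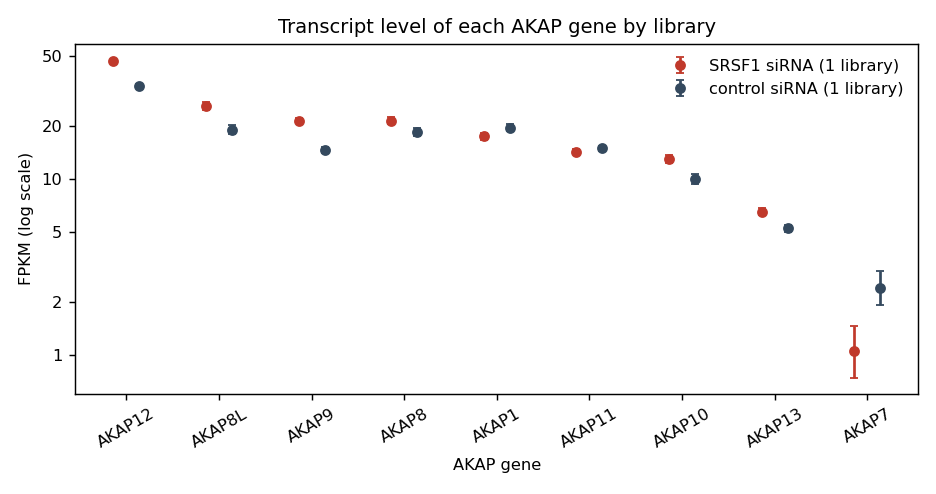
FPKM (log axis) of each AKAP gene in the SRSF1 siRNA library (red) and the control siRNA library (dark blue), with exact 95% Poisson counting intervals. AKAP12 stands highest in both libraries, and AKAP7 lowest, at 1.06 FPKM with SRSF1 siRNA and 2.42 FPKM with control siRNA.

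The nuclear members AKAP8 and AKAP8L are encoded side by side on the minus strand of chromosome 19. AKAP8, also called AKAP95, binds chromatin and takes part in chromosome condensation and splicing, and lies at 15353385 to 15379798 on GRCh38 in GENCODE 29. AKAP8L, its paralogue, is a nuclear protein that binds an RNA helicase and lies at 15380048 to 15419141. AKAP8 had 21.4 FPKM in the SRSF1 siRNA library, from 1808 fragments, and 18.4 FPKM in the control library, from 1512 fragments. The ratio of the AKAP8 levels was 1.16 (1.08 to 1.24). AKAP8L had 25.9 FPKM in the SRSF1 siRNA library, from 1405 fragments, and 19.1 FPKM in the control library, from 1004 fragments. The ratio of the AKAP8L levels was 1.36 (1.25 to 1.47).

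The ratio of AKAP8L was 1.17 times that of AKAP8 in these libraries, with an interval of 1.05 to 1.30 that covers counting error only and has no replicate behind it. In the control library their levels were close, with AKAP8L at 1.03 times AKAP8 (0.954 to 1.12). In GENCODE 29, exons of the transcript AC005785.1 on the opposite strand overlap both genes, by 172 bases for AKAP8 and 479 for AKAP8L. AC006128.1 overlaps AKAP8L by a further 1137 bases, also on the opposite strand. The strand setting of the authors' counting is not given in the sources used here, so reads of these transcripts cannot be told apart from those of the genes. RefSeq also lists a pseudogene of AKAP8, AKAP8P1, which could share reads with it.

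AKAP9, a very large coiled-coil scaffold of the centrosome and Golgi also known as AKAP450 or yotiao, had the highest ratio of the family. It lies on the plus strand of chromosome 7, from 91940867 to 92110673. Its level was 21.5 FPKM in the SRSF1 siRNA library and 14.6 FPKM in the control library, a ratio of 1.47 (1.39 to 1.55). The smallest counts that account for these values were 3225 and 2128 fragments on a model of 6303 bases. Doubled, to 6450 and 4256 fragments on 12606 bases, the model comes close to the 12471 bases of the longest coding transcript, and the interval becomes 1.41 to 1.53. Among expressed genes, the AKAP9 difference of 0.53 on the log2(FPKM + 1) scale was at percentile 98.2.

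AKAP12, also called gravin or SSeCKS, is a scaffold of the plasma membrane and cortical cytoskeleton that binds protein kinase C as well as protein kinase A. It lies on the plus strand of chromosome 6, from 151239999 to 151358557, and was the most abundant of the 9 genes in both libraries. Its level was 46.6 FPKM in the SRSF1 siRNA library and 33.8 FPKM in the control library, from 11215 and 7890 fragments. The ratio of 1.38 (1.34 to 1.42) has the narrowest interval of the family. The AKAP12 difference of 0.45 was at percentile 97.2 of expressed genes.

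AKAP7, also called AKAP15 or AKAP18, was the only member at a lower level by more than 1.5-fold. It anchors the kinase near calcium channels and calcium pumps in muscle, and has short and long isoforms. It lies on the plus strand of chromosome 6, from 131135666 to 131283535. Its level was 1.06 FPKM in the SRSF1 siRNA library and 2.42 FPKM in the control library, a ratio of 0.438. The smallest counts were 37 and 82 fragments, which gives an interval of 0.289 to 0.653. Doubled counts, on 2934 bases against a longest coding transcript of 2954, narrow this to 0.328 to 0.579. The difference on the log2(FPKM + 1) scale was -0.73, at percentile 2.0. RefSeq lists promoter windows at 2 separate starts of AKAP7, and the row gives no value per isoform. The processed pseudogene AL137222.1 overlaps 186 exon bases of AKAP7 on the opposite strand.

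AKAP13, also called AKAP-Lbc, joins kinase anchoring to guanine nucleotide exchange activity. It spans 85380571 to 85749358 on the plus strand of chromosome 15. Its level was 6.53 FPKM in the SRSF1 siRNA library and 5.25 FPKM in the control library, from 2111 and 1648 fragments, a ratio of 1.24 (1.16 to 1.33). Exons of 4 antisense transcripts overlap AKAP13 by 200 to 953 bases each. AKAP10, also called D-AKAP2, binds both classes of regulatory subunit and carries domains like those of regulators of G-protein signalling. Its gene spans 19904302 to 19978343 of chromosome 17 and is read from the minus strand. Its level was 13.0 FPKM in the SRSF1 siRNA library and 9.98 FPKM in the control library, from 1219 and 910 fragments, a ratio of 1.30 (1.19 to 1.42).

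The remaining pair lay just below their control levels. AKAP1 anchors the kinase on the outer mitochondrial membrane and also binds RNA there. It lies on the plus strand of chromosome 17, from 57085092 to 57121349. Its level was 17.5 FPKM in the SRSF1 siRNA library and 19.5 FPKM in the control library, from 1789 and 1934 fragments, a ratio of 0.897 (0.841 to 0.957). An antisense transcript overlaps 116 of its exon bases. AKAP11, also called AKAP220, binds the kinase GSK3B and protein phosphatase 1 and lies on the plus strand of chromosome 13, from 42272153 to 42323267. Its level was 14.3 FPKM in the SRSF1 siRNA library and 14.9 FPKM in the control library, from 3381 and 3422 fragments, a ratio of 0.958 (0.914 to 1.01). The AKAP11 difference of -0.06 lay at percentile 50.1, the middle of all expressed genes.

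**Figure D2:**
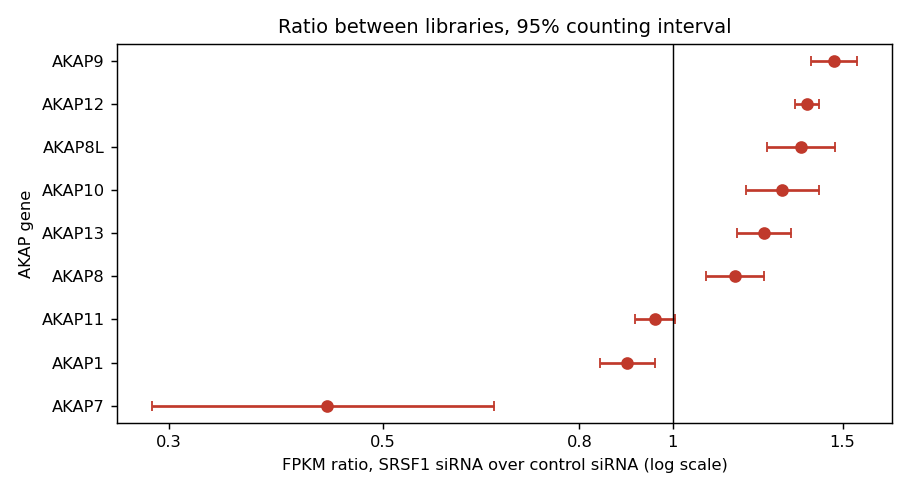
FPKM ratio of each AKAP gene, SRSF1 siRNA over control siRNA, on a log axis, with exact 95% counting intervals. The 6 upper genes lie between 1.16 and 1.47, AKAP11 and AKAP1 just under 1, and AKAP7 at 0.438 with the widest interval.

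Genes next to each other in the order of their ratios were compared. The pairs were picked by these same ratios, with the higher one first. The intervals therefore describe the pairs and do not test whether they differ. Of the 8 pairs, 3 had an interval wholly above 1. These were AKAP9 against AKAP12, where one ratio was 1.07 times the other (1.002 to 1.13), AKAP8 against AKAP11 (1.21 times, 1.11 to 1.32), and AKAP1 against AKAP7 (2.05 times, 1.37 to 3.13). For AKAP12 against AKAP8L the interval was 0.931 to 1.11, and for AKAP8L against AKAP10 it was 0.927 to 1.18. For AKAP10 against AKAP13 and AKAP13 against AKAP8 the intervals were 0.938 to 1.17 and 0.974 to 1.18, and for AKAP11 against AKAP1 it was 0.985 to 1.16. Across the extremes among the more abundant members, a pair also picked by its ratios, the AKAP9 ratio was 1.64 times the AKAP1 ratio (1.504 to 1.78).

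The order of the levels differed between the libraries below the first rank. In the SRSF1 siRNA library it ran AKAP12, AKAP8L, AKAP9, AKAP8, AKAP1, AKAP11, AKAP10, AKAP13 and AKAP7. Only AKAP9 and AKAP8 were within counting error of each other there (1.00 times, 0.946 to 1.06). In the control library the order was AKAP12, AKAP1, AKAP8L, AKAP8, AKAP11, AKAP9, AKAP10, AKAP13 and AKAP7. Neighbours there within counting error were AKAP1 and AKAP8L (1.02 times, 0.947 to 1.10), AKAP8L and AKAP8, and AKAP11 and AKAP9 (1.02 times, 0.968 to 1.08). AKAP9 thus stood above AKAP8, AKAP1 and AKAP11 with SRSF1 siRNA, against a place below all 3 with control siRNA, within counting error of AKAP8 with SRSF1 siRNA and of AKAP11 with control siRNA.

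Summed over the 9 genes, the level was 168 FPKM in the SRSF1 siRNA library and 138 FPKM in the control library, a ratio of 1.22. Without AKAP12 the sums were 121 and 104 FPKM, a ratio of 1.16. AKAP12 made up 27.8% of the sum with SRSF1 siRNA and 24.5% with control siRNA. The share of AKAP9 was 12.8% with SRSF1 siRNA and 10.6% with control siRNA, and that of AKAP1 was 10.4% and 14.1% in the same order.

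**Figure D3:**
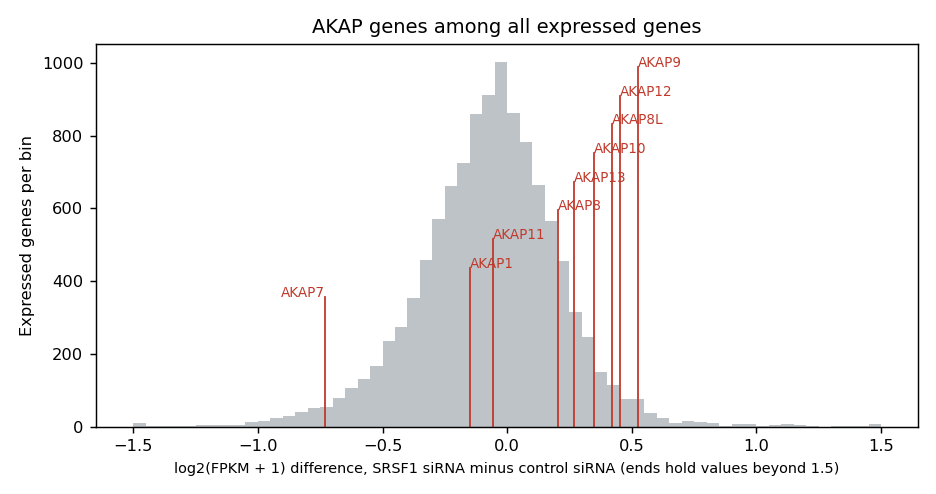
Histogram of the log2(FPKM + 1) difference, SRSF1 siRNA minus control siRNA, over 11274 expressed genes, with the 9 AKAP genes as red lines whose height has no meaning. Bins are 0.05 wide and the end bins hold all values beyond 1.5. The 6 higher AKAP genes lie between percentiles 86.2 and 98.2, AKAP11 at percentile 50.1, AKAP1 at percentile 35.9 and AKAP7 at percentile 2.0.

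Each AKAP gene had others among the 11274 expressed genes with a difference close to its own, on either side. Within 0.05 of the AKAP9 difference lay 127 other expressed genes, and within 0.05 of the AKAP7 difference 110. For AKAP12 the number was 189, for AKAP8L 223 and for AKAP10 403. AKAP13 and AKAP8 had 680 and 989, and AKAP1 and AKAP11 had 1596 and 1915. With 2 libraries each gene has 1 difference, so no single gene is named as most alike.

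Transcript length moved with the difference across all genes. Of 4 equal classes of protein-coding genes by length, the one with the longest transcripts, which holds AKAP9, AKAP11, AKAP12 and AKAP13, had a median difference of 0.01 over 2513 genes. The class with the shortest transcripts, which holds AKAP8L, had a median of -0.13 over 2509 genes. With the trend on length and GC content removed, 6 of the 9 AKAP differences were still above 0, and the median over the 9 was 0.19. AKAP8L then had the largest difference of the 9 at 0.49, followed by AKAP9 at 0.43 and AKAP12 at 0.38, while AKAP7 stood at -0.74. Chromosome M took 8.39% of mapped reads in the SRSF1 siRNA library and 6.60% in the control library, and its part in these differences was not tested.

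The transcripts also differ in how often they hold short motifs linked to SRSF1 binding. The purine-rich motif GAAGAA occurred 4.41 times per kilobase in the longest coding transcript of AKAP9, percentile 99.3 of protein-coding expressed genes, and 2.96 times in that of AKAP12, percentile 96.8. The median over those genes was 0.718 per kilobase, and 8 of the 9 AKAP transcripts lay above it. The exception was AKAP1 at 0.700 per kilobase. AKAP10, AKAP11 and AKAP8 were only just above the median, at percentiles 51.1, 55.3 and 56.1. AKAP7, at the other end of the order of change, lay above the median too, at 1.69 per kilobase, percentile 86.0. Any part of the motif in these differences was not tested. GGAGA was above its median of 1.86 per kilobase in 6 of the 9, with 2.80 for AKAP13 and AKAP8L, and below it in AKAP9 at 1.68. AKAP7 was close to that median, at 2.03 per kilobase. Motifs were counted on the sense strand with overlaps allowed, and a count of letters says nothing of binding.

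The other AKAP-named rows were 9, of which 4 were listed at 0 in both libraries: AKAP4, AKAP14, AKAP17A and the pseudogene AKAP16BP. AKAP2 was at 1.09 times its control level (1.03 to 1.15). PALM2-AKAP2, which shares its exons, had 13.5 FPKM in the SRSF1 siRNA library and 12.4 FPKM in the control library. AKAP5, a plasma membrane scaffold known best from neurons, had 1.09 FPKM in the SRSF1 siRNA library and 0.839 FPKM in the control library (1.30 times, 1.03 to 1.65). AKAP3, known from sperm, had 0.226 FPKM in the SRSF1 siRNA library and 0.476 FPKM in the control library, on 22 and 45 fragments. AKAP6, known from heart and brain, had 0.0565 FPKM in the SRSF1 siRNA library and 0.0499 FPKM in the control library.

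Other anchors, genes of the rest of the cyclic AMP pathway and partners of the AKAPs were taken in fixed lists. Past 1.5-fold is counted here on the log2(FPKM + 1) scale throughout. The 12 lists looked at held 131 different gene names, of which 81 were expressed. Of these, 1 was at least 1.5-fold higher and 1 at least 1.5-fold lower, beside the 1.22% and 4.30% of all expressed genes. Of 11 genes for subunits and inhibitors of protein kinase A, 6 were expressed and none was past 1.5-fold, with a median difference of 0.12. The catalytic subunit gene PRKACA was at 12.7 FPKM in the SRSF1 siRNA library and 11.3 FPKM in the control library (1.13 times, 1.02 to 1.24). The regulatory subunit gene PRKAR1B was at 8.26 FPKM in the SRSF1 siRNA library and 10.3 FPKM in the control library (0.799 times, 0.708 to 0.900). The catalytic subunit gene PRKACB and the regulatory subunit gene PRKAR2B were not among the expressed genes, at 0.0458 and 0 FPKM in the SRSF1 siRNA library and 0.0378 and 0 FPKM in the control library.

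PDE8A, a phosphodiesterase that breaks down cyclic AMP, was the gene at least 1.5-fold higher. It had 16.1 FPKM in the SRSF1 siRNA library and 8.58 FPKM in the control library, a ratio of 1.87 (1.72 to 2.04). It was 1 of 5 expressed genes in the phosphodiesterase list, whose median difference was -0.01. PDE4B was at 0.830 times (0.716 to 0.962) and PDE4D at 1.17 times (1.02 to 1.35). PDE8A and AKAP13 both lie on the plus strand of chromosome 15, with 241425 bases between them in GENCODE 29, a distance looked up after their values were seen. Of 9 expressed genes for cyclases and G proteins none was past 1.5-fold (median -0.03). The adenylyl cyclase gene ADCY6 was at 1.24 times (1.05 to 1.46) and the inhibitory G protein gene GNAI3 at 0.846 times (0.784 to 0.913). Genes for other effectors of cyclic AMP had no expressed member.

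Downstream of the kinase, 7 of 8 genes for CREB factors and coactivators were expressed, and none was past 1.5-fold (median 0.07). The coactivator gene CRTC2 had 5.35 FPKM in the SRSF1 siRNA library and 3.53 FPKM in the control library (1.51 times, 1.27 to 1.80). CREBBP, the CREB-binding acetyltransferase, was at 1.21 times (1.13 to 1.30). The 5 expressed CREB target genes had a median difference of 0.08 with none past 1.5-fold. FOS was at 1.29 times (0.935 to 1.78) and PER1 at 1.21 times (0.964 to 1.52), and the counting interval held 1 for all 5.

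Anchors with other names had a median difference of 0.02 over 11 expressed of 20 genes, and none was past 1.5-fold on the scale used. PDE4DIP, a paralogue of the centrosomal CDK5RAP2 that binds phosphodiesterase 4D, was at 2.05 FPKM in the SRSF1 siRNA library and 3.20 FPKM in the control library (0.640 times, 0.567 to 0.723). GPR161, a ciliary receptor that binds the kinase, was at 0.895 times (0.794 to 1.01). The 11 expressed genes for other enzymes held by AKAPs had a median difference of 0.06. The calcineurin catalytic subunit gene PPP3CB was at 0.769 times (0.710 to 0.832) and the protein phosphatase 1 gene PPP1CC at 1.25 times (1.20 to 1.30).

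Partners of single AKAPs had no gene past 1.5-fold on that scale. The 9 partners of AKAP9 at the centrosome and Golgi had a median difference of 0.00, with TUBGCP3, of the complex that nucleates microtubules, at 1.31 times (1.17 to 1.45), beside PDE4DIP. The 11 nuclear partners of AKAP8 and AKAP8L had a median of -0.10. KMT2A, a histone methyltransferase, had 9.79 FPKM in the SRSF1 siRNA library and 6.50 FPKM in the control library (1.51 times, 1.43 to 1.59), whereas the condensin subunit gene NCAPD2 was at 0.768 times (0.742 to 0.794). The 7 partners of AKAP1 at mitochondria had a median of -0.01. The RNA-binding protein gene LARP4B was at 1.32 times (1.26 to 1.40) and the prohibitin gene PHB2 at 0.763 times (0.739 to 0.787).

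**Figure D4:**
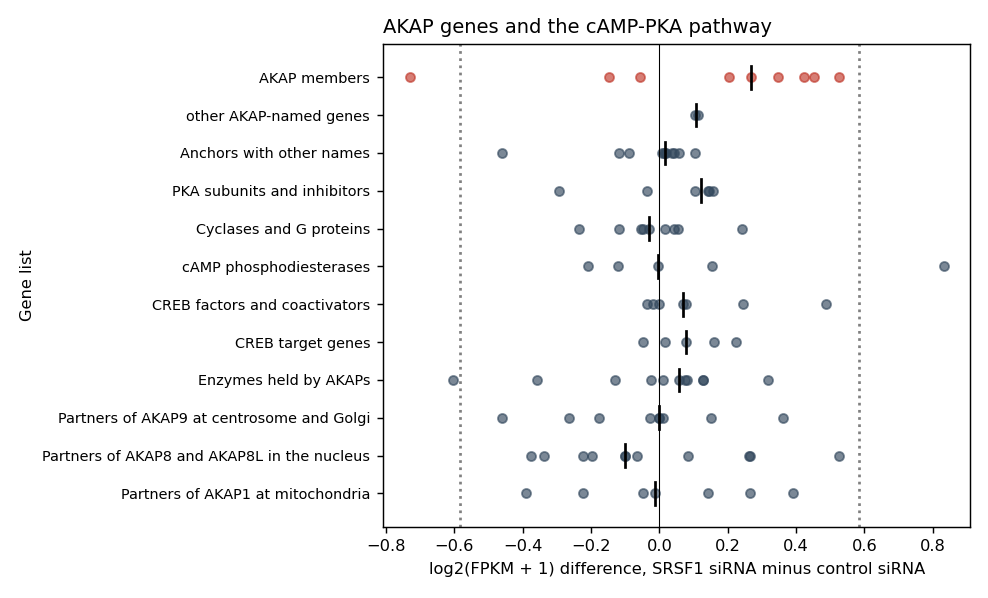
Change of each expressed gene (points, log2(FPKM + 1) with SRSF1 siRNA minus the same with control siRNA) of the AKAP family and of the pathway lists, with the median of each list as a black bar and dotted lines at 1.5-fold. AKAP7 lies beyond the lower line among the AKAP genes, and PDE8A beyond the upper line.

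The direction of each AKAP difference was the same under every other way of processing that was tried. A changed filter or pseudocount, or the use of counts, cannot change a direction. Scaling to the same sum, quantile normalization and removal of the length and GC trend could have changed it. AKAP11 had the smallest difference, -0.01 under quantile normalization. The AKAP9 difference ran from 0.43 to 0.58 and that of AKAP12 from 0.38 to 0.50 over all the ways tried. AKAP7 moved most, from -1.19 to -0.64, and was at least 2-fold lower with a pseudocount of 0.1 or with none.

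**Figure D5:**
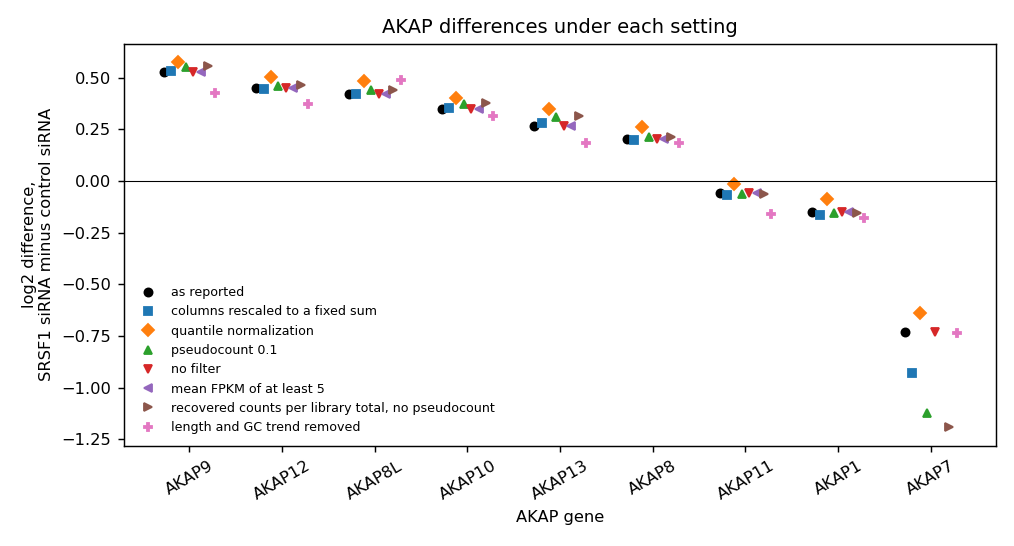
Log2 difference of each AKAP gene, SRSF1 siRNA minus control siRNA, under each way of processing (symbols), with the values reported in the text in black. No gene crosses 0, and AKAP7 has the widest spread.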

How the data were processed

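Groups of 1 library each follow the source names in the labels. FPKM values, one column per library, were computed and deposited by the authors. Bowtie 0.12.2 and build hg19 are named in the submitters' processing notes. For the counting tool, annotation, strand setting and filters, the sources used here give nothing. A deposited mapping summary per library gave the authors' read counts, another kind of value.

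Whole counts were recovered from FPKM, which is a count over the length of the model and the size of the library. Whole numbers came out with totals of 23852089 fragments for SRSF1 siRNA and 23138519 for control siRNA. Of 16235 genes above 0 in both, 16229 gave whole counts within a relative tolerance of 2e-13 and a model of at most 200000 bases. With the control total raised by 1, 0 of 3000 did. These are the smallest counts that fit, and the true count can be a whole multiple. Ratios have exact Clopper-Pearson 95% intervals conditional on the sum, and ratios of ratios exact odds-ratio intervals. Reads that are PCR copies do not count separate molecules. Expressed genes had a median of 596 fragments in the SRSF1 siRNA library and 618 in the control library.

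Differences were taken in log2(FPKM + 1) over genes with a mean of at least 1 FPKM. "Rose" or "fell" would have needed 2-fold. Transcript lengths, GC content and positions came from GENCODE 29 (GRCh38, the longest coding transcript by symbol or Entrez ID, found for 96.4% of expressed genes), and promoters from RefSeq (GRCh38.p14). Positions differ from hg19. The trend on length and GC was removed with additive lowess curves of span 0.3. The members and lists were chosen with earlier results of these data known. The named genes of each list are those past 1.5-fold and up to 2 more by size of difference; 1 gene of the pathway lists is not reported here. Recovery of totals and counts, the intervals of single ratios and the 1.5-fold rule were tested on simulated data. The simulated counts held Poisson counting error only, and the other steps were not tested in this way. Python 3.11.15, scipy 1.17.1, pandas 2.3.3 and statsmodels 0.14.6 were used.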

Additional observations from a re-analysis of the deposited data

How the results depend on the processing

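All 9 AKAP differences kept their sign under every alternative that gave a value (7 each, and 6 for AKAP7, which has a mean below 5 FPKM). A changed filter or pseudocount, or the use of counts, cannot change a sign. Only scaling to the same sum, quantile normalization and removal of the length and GC trend could have. The AKAP7 difference ran from -1.19 to -0.64. AKAP7 was at least 2-fold lower, as 1 of 9 in place of 0, with a pseudocount of 0.1 and from counts without a pseudocount. With a mean of at least 5 FPKM, 0 AKAP genes were at least 1.5-fold lower because AKAP7 was left out. Over all expressed genes, 138 were at least 1.5-fold higher and 485 lower, and 32 and 49 passed 2-fold. These counts were 259, 802, 85 and 141 after scaling both columns to the same sum, 237, 806, 67 and 165 with a pseudocount of 0.1, 256, 860, 64 and 202 from counts, and 69, 267, 8 and 18 with a mean of at least 5 FPKM. With no filter 247 were at least 1.5-fold higher and 594 lower, and 52 and 67 passed 2-fold. Under quantile normalization 217 were at least 1.5-fold higher and 324 lower. With the length and GC trend removed these 1.5-fold counts were 132 and 375. Of the expressed genes in the fixed lists, 1 was at least 1.5-fold higher and 1 lower. These counts were 2 and 0 under quantile normalization, 2 and 2 with a pseudocount of 0.1 and 3 and 2 from counts. With the length and GC trend removed, 0 were lower. Counts at the multiple nearest the transcript length put no interval on another side of 1. The cause of these shifts was not tested. No paired analysis was possible because each group held 1 library, and no library could be left out. Counting depth limits AKAP7 most, with its 37 and 82 fragments.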
